A study of Mus musculus with 2 samples.

Results

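The Hox genes were examined in livers of B6NCrl mouse embryos, taken whole at embryonic day 15.5. They were taken as the annotated protein-coding genes whose symbol is Hox, followed by a, b, c or d and a number. This gave 39 genes of the 21474 protein-coding genes measured, with 11 in the Hoxa cluster, 10 in Hoxb, 9 in Hoxc and 9 in Hoxd. The rule used no measured value. Total RNA longer than 200 nt was sequenced in 2 libraries, which the labels call biological replicates of a single group, with no treatment, mutation or control named. Replicate 1 was a pool of livers from 78 embryos and replicate 2 a pool from 62, with males and females together in each pool, and each library used 10 ng of RNA with added spike-in RNA. Genes held 34039426 expected counts in replicate 1 and 44200838 in replicate 2. With 1 group, the design implies comparisons of genes within the tissue and of replicate 2 with replicate 1.

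Hox genes encode DNA-binding proteins that share a homeodomain, the product of a stretch called the homeobox. They lie in 4 clusters that arose by duplication, and a gene's paralog number gives its place along the cluster. Low numbers are used in anterior parts of the embryo and high numbers in posterior parts, and opening of a cluster proceeds from the low end. In blood formation, Hoxa9 and its cofactor Meis1 maintain stem and progenitor cells. Polycomb proteins keep unused Hox genes silent, and the MLL and trithorax proteins keep used ones active. The fetal liver is the main site of blood formation at this stage, and it also contains hepatocytes, endothelium and mesenchyme. In whole tissue, fewer cells of a type and less RNA per cell cannot be told apart.

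A homeobox of 180 bases was found in a coding transcript of all 39 genes. Between genes of 1 paralog number in different clusters, the homeoboxes had a median identity of 80.6% over 42 pairs, with a range of 67.2% to 93.9%. Between genes of different paralog number it was 60.6% over 699 pairs, with a range of 46.1% to 88.9%. The stretch that encodes the DNA-recognition helix is shown for 4 genes, picked after their values were seen because they were among the higher genes of this liver or, for Hoxd13, were listed at 0. Each run holds 48 bases in the 5′ to 3′ direction of the gene, from GENCODE M21 transcripts on GRCm38. Capitals mark bases that differ from Hoxa5.
Hoxa5: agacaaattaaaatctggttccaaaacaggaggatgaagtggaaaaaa
Hoxb2: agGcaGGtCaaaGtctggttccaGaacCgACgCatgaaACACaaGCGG
Hoxc4: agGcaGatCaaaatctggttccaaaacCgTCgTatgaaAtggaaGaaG
Hoxd13: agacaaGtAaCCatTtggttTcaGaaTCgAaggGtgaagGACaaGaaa
The Hoxa5 stretch lies at chr6:52202638-52202685 on the minus strand, in coding exon 2 of 2, and that of Hoxd13 at chr2:74670056-74670103 on the plus strand, also in exon 2 of 2. Hoxc4, the next lower paralog number, differed from Hoxa5 at 10 of these bases. Hoxb2 differed at 18, the most of those shown, and Hoxd13 at 15. Over the whole homeobox of 180 bases the order was another. Identity to Hoxa5 was 74.4% for Hoxc4, 60.6% for Hoxb2 and 51.1% for Hoxd13.

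This likeness bears on how reads can be assigned. The longest identical run between 2 homeoboxes was 52 bases. Over whole transcripts, 25 of the 39 genes shared no stretch of 100 bases with any other measured gene on either strand. Sharing between members was found for 4 genes, in the pairs Hoxc5 with Hoxc10 and Hoxd3 with Hoxd4. With any other gene, 57.9% of the stretches of Hoxd3 and 41.1% of those of Hoxd4 were shared, mostly with the readthrough model Gm28230 on the same strand. Gm28230 itself was listed at 0 counts in both libraries. The models of annotation M4, which the files use, may differ, so the low counts of this pair remain uncertain. Of the other Hoxd genes, Hoxd1, Hoxd8, Hoxd9, Hoxd12 and Hoxd13 shared no stretch. Antisense genes overlap others: 49.7% of the 100-base stretches of Hoxb3, 24.5% of those of Hoxb2 and 17.0% of those of Hoxa7 are also transcribed from the opposite strand by an annotated gene. Whether the authors' counting used strand is not given in the sources used here. If strand was not used, reads within these overlaps cannot be told apart. Expected counts that are not whole numbers mark reads divided between genes. They were found for 5 Hox genes. Hoxb2 had 51.64 and 46.57, Hoxb3 had 4.43 and 7.2, and Hoxa3 had 12.67 and 17.64. Hoxc5 had 8 and 17.72, and Hoxc10 had 0 and 1.28. The antisense gene Hoxb3os (17.93 and 15.23) and Hoxaas2 in the Hoxa span (11.33 and 14.36) also had such counts. Hoxb2 and Hoxb3 shared 100-base stretches only with Hoxb3os, on the opposite strand. Hoxa3 shared stretches with Hoxaas2 among others, and Hoxc5 with Hoxc10. The levels of these 5 Hox genes thus rest in part on how shared reads were divided.

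Hox transcripts were scarce in this liver. The 39 genes together reached 4.58 TPM in replicate 1 and 4.42 TPM in replicate 2, or 4.50 ± 0.113 (SD, n = 2). TPM is abundance corrected for transcript length and library size, here with spike-ins left out. That sum rested on 253.74 expected counts in replicate 1 and 302.41 in replicate 2, or 7.45 and 6.84 CPM, the count scaled to library size with no correction for length. A median protein-coding gene alone stood at 1.68 and 1.54 TPM. No Hox gene reached 1 TPM in both libraries, against 53.1% of all protein-coding genes. At 0.1 TPM there were 10 of 39, or 25.6%, against 65.5%. At 10 expected counts in both libraries there were 8 of 39, or 20.5%, against 64.4%. Ranked by mean TPM, all 39 lay in the lower 50% of protein-coding genes, and the highest stood at percentile 45.0.

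Of the 39 genes, 26 had counts in at least 1 library and 13 were listed at 0 in both, or 33.3% against 20.5% of protein-coding genes. Of the 26, 7 had counts in 1 library alone, and none of these exceeded 5 counts. A count of 0 allows up to 3 counts, which is 0.0881 CPM in replicate 1 and 0.0679 CPM in replicate 2. These limits and the intervals given here cover counting error only, since amplified reads without molecular identifiers are not independent molecules. The ranking of the 39 genes by TPM was similar in the libraries, with a Spearman correlation of 0.857 across genes, which are not independent replicates.

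**Figure D1:**
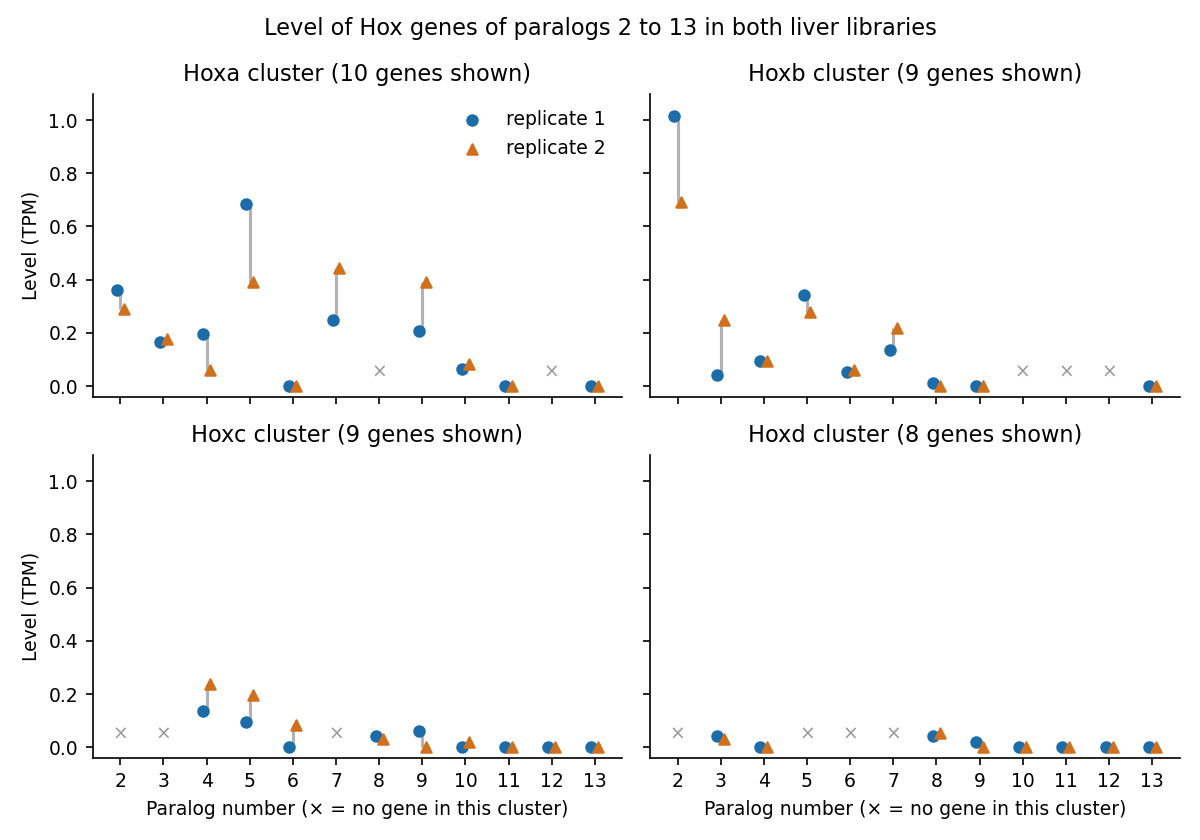
TPM (vertical axis) of the Hox genes of paralogs 2 to 13 in replicate 1 (circles) and replicate 2 (triangles), by paralog number (horizontal axis) in each of the 4 clusters; grey lines join both libraries and crosses mark paralog numbers without a gene. Hoxb2 is the highest gene in both libraries, and every gene with a paralog number of 11 or more lies at 0.

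The Hoxa cluster, at chr6:52155590-52260880, held the largest share of the Hox RNA. It summed to 2.45 TPM in replicate 1 and 2.13 TPM in replicate 2, which is 53.6% and 48.1% of the Hox total. Hoxb, at chr11:96194316-96368256, followed with 1.69 and 1.60 TPM, or 36.9% and 36.2%. Hoxc, at chr15:102921103-103036852, summed to 0.331 and 0.568 TPM. Hoxd, at chr2:74668310-74765142, summed to 0.104 and 0.124 TPM, from only 7 and 9 counts. The order of the clusters was Hoxa, Hoxb, Hoxc, Hoxd in each library. The ranges of the clusters over the libraries did not overlap. Hoxa held 8 genes with counts in both libraries, Hoxb 6, Hoxc 3 and Hoxd 2.

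Among the anterior genes, Hoxb2 was the highest Hox gene. Hoxb2, which patterns the hindbrain, had 51.64 counts in replicate 1 and 46.57 in replicate 2, or 1.02 and 0.692 TPM. Hoxa2, a regulator of the second branchial arch, had 18 and 19 counts, or 0.363 and 0.289 TPM. Both libraries of Hoxb2 lay above both of Hoxa2. Hoxa3, which acts in thymus and parathyroid development, was even between libraries at 0.166 and 0.175 TPM, from 12.67 and 17.64 counts. Hoxb3 had 4.43 and 7.2 counts. Its TPM of 0.0414 and 0.248 differed more than its counts. The counts were assigned to different transcripts, all to Hoxb3-202 in replicate 1 and none to it in replicate 2. Hoxb1 had 0 and 1 counts, Hoxd1 0 and 3, and Hoxd3 3 and 1. These are too few to place the genes against each other.

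Among the central genes, Hoxa5 was the highest by mean TPM. Hoxa5, known for its part in lung and neck development, had 38 counts in replicate 1 and 29 in replicate 2, or 0.684 and 0.392 TPM. Hoxb5, its counterpart in Hoxb and a marker used for long-lived blood stem cells, had 20 and 22 counts, or 0.342 and 0.279 TPM. Both libraries of Hoxa5 lay above both of Hoxb5. Hoxa7 had 13 and 21 counts, or 0.249 and 0.444 TPM, a range that overlaps both of these genes. Its counterpart Hoxb7 was lower, with 5 and 11 counts, or 0.135 and 0.217 TPM. Hoxc4 and Hoxc5 were the highest genes of the Hoxc cluster. Hoxc4 had 8 and 19 counts, or 0.135 and 0.237 TPM, and Hoxc5 had 8 and 17.72 counts, or 0.0932 and 0.196 TPM. Their ranges overlap. Hoxb4, used experimentally to expand blood stem cells, stood at 0.0932 and 0.0929 TPM, from 7 and 10 counts. Hoxa4 had 9 and 4 counts, or 0.197 and 0.0619 TPM. The remaining central genes with counts did not exceed 5 in a library: Hoxd8 had 3 and 5, Hoxc6 had 0 and 5, Hoxb6 and Hoxc8 each had 2 and 3, and Hoxb8 had 1 and 0. Hoxa6 and Hoxd4 were listed at 0.

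Of 16 posterior genes, Hoxa9 alone reached 10 counts. Hoxa9, the Hox gene most tied to blood stem and progenitor cells, had 10 counts in replicate 1 and 25 in replicate 2, or 0.207 and 0.392 TPM. Its neighbour Hoxa10, which also acts in blood progenitors, had 3 and 6 counts, or 0.0621 and 0.0826 TPM. Both libraries of Hoxa9 lay above both of Hoxa10. Hoxc9 and Hoxd9 each had 1 count in replicate 1 and 0 in replicate 2, and Hoxc10 had 0 and 1.28. The 11 posterior genes listed at 0 in both libraries were Hoxb9, Hoxd10, Hoxa11, Hoxc11, Hoxd11, Hoxc12, Hoxd12, Hoxa13, Hoxb13, Hoxc13 and Hoxd13. Several of these shape the limb, kidney, gut end and genital tract, such as Hoxa11 and Hoxd11 in the kidney and forearm and Hoxd13 in the digits. Of 5 kidney markers, 5 gut and stomach markers and 5 limb and skeleton markers, none reached 1 TPM in both libraries, and the kidney gene Pax2 was at 0 counts. Sox9, of the limb and skeleton list, at 1.08 and 0.774 TPM, still lay above the highest Hox gene in both libraries. The cells that its RNA came from were not tested.

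The levels did not follow the paralog numbers evenly. Paralog 2 held the largest sum, with 1.38 TPM in replicate 1 and 0.981 TPM in replicate 2 from 2 genes. Paralog 5 followed with 1.12 and 0.867 TPM from 3 genes, and the ranges of these sums overlap. Paralog 6 was lower than both of its neighbours in the series, with 0.0518 and 0.145 TPM against 0.383 and 0.661 TPM for paralog 7. Paralog 8 summed to 0.0932 and 0.0826 TPM, and paralog 9 was higher again at 0.290 and 0.392 TPM, of which Hoxa9 gave 0.207 TPM in replicate 1 and all in replicate 2. All 9 genes of paralogs 11, 12 and 13 were at 0 counts. Summed by region, a grouping made after the values were seen, paralogs 1 to 3 held 2.15 and 1.78 TPM, paralogs 4 to 8 held 2.07 and 2.15 TPM, and paralogs 9 to 13 held 0.352 and 0.495 TPM. Within Hoxa the central genes held 1.13 and 0.898 TPM and the posterior genes 0.269 and 0.475 TPM. Within Hoxb the 3 regions held 1.06 and 0.950 TPM, 0.632 and 0.650 TPM, and 0 in both libraries. In both libraries most posterior RNA came from Hoxa. Hoxc has no anterior gene, and its central genes held 0.269 and 0.547 TPM against 0.0621 and 0.0206 TPM for its posterior genes. Across the 39 genes, the Spearman correlation of paralog number with TPM was −0.552 in replicate 1 and −0.647 in replicate 2. It was negative in each cluster in each library, weakest in Hoxa in replicate 2 at −0.369 over 11 genes and strongest in Hoxc in replicate 2 at −0.914 over 9 genes. These points share a library, and many are tied at 0.

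**Figure D2:**
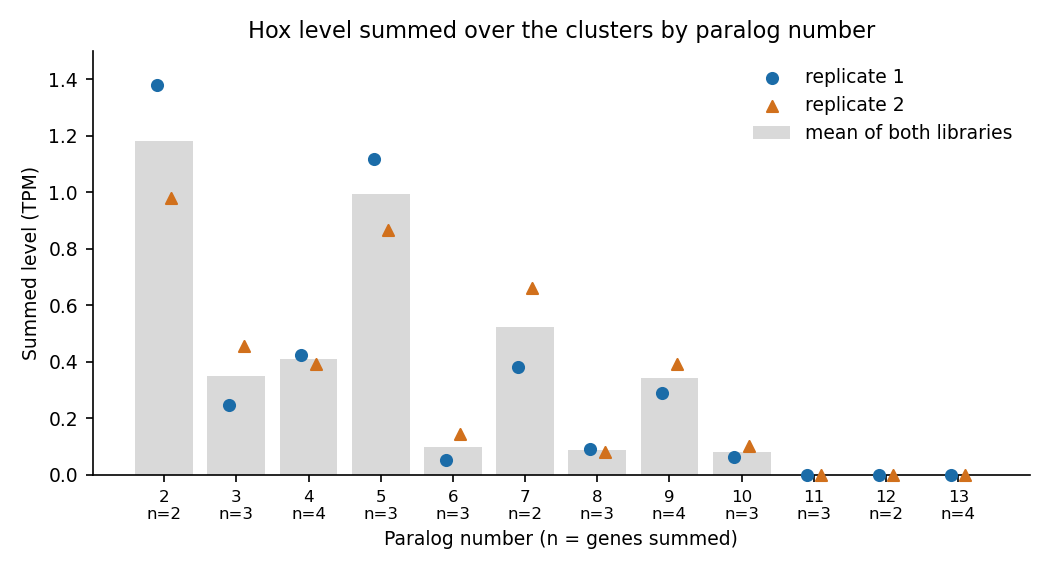
Summed TPM (vertical axis) of the Hox genes of each paralog number from 2 to 13 (horizontal axis), with circles for replicate 1, triangles for replicate 2 and bars for their mean; n is the number of genes summed. Paralogs 2 and 5 stand highest, and paralogs 11 to 13 lie at 0.

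The libraries were compared as replicate 2 over replicate 1, with 1 library on each side and therefore no test. The ratio is of expected counts scaled by library total, with an exact 95% Clopper-Pearson interval. For all Hox genes it was 0.916, with an interval of 0.772 to 1.09, and it turned to 1.01 when the libraries were scaled by their spike-ins, which shifts all genes by 0.15 on the log2 scale. Of the 12 genes with at least 10 counts in either library, 7 had a ratio above 1, up to 1.93 for Hoxa9, and 5 below. The interval of 11 of these included 1. The exception was Hoxa5, lower in replicate 2 with a ratio of 0.588 and an interval of 0.350 to 0.979. With spike-in scaling its interval also took in 1, at 0.387 to 1.08. Among all 14417 protein-coding genes with that many counts, the interval lay below 1 for 20.6% and above 1 for 17.3%.

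By TPM, 1 of the 12 genes differed by more than 2-fold, or 8.33%, against 4.02% of all protein-coding genes, of which 1.73% were higher in replicate 2 and 2.29% lower. It was Hoxc5, with a TPM ratio of 2.10. Its count ratio was 1.73, with an interval of 0.717 to 4.61, so the difference was not beyond counting error. Of its 0.196 TPM in replicate 2, 0.0619 lay on the processed transcript Hoxc5-202, from 1.25 counts. The coding form Hoxc5-201 stood at 0.0932 TPM in replicate 1 and 0.134 TPM in replicate 2. The Hoxc cluster as a whole had 19 counts in replicate 1 and 46 in replicate 2, a ratio of 1.86 with an interval of 1.07 to 3.37, and with spike-in scaling the interval was 1.19 to 3.73. The other clusters' intervals included 1, at 0.650 to 1.05 for Hoxa, 0.637 to 1.15 for Hoxb and 0.328 to 3.13 for Hoxd. The anterior genes together had a ratio of 0.751 with an interval of 0.579 to 0.974, which with spike-in scaling became 0.641 to 1.08. Markers of other tissues also differed between the libraries. The 5 skeletal muscle markers were all higher in replicate 2 and summed to 198 and 317 TPM, and none was at 0 counts. The 5 pancreas markers were all lower in replicate 2 and summed to 26.4 and 13.9 TPM, with the pancreas factor Ptf1a at 20 and 0 counts. Of the limb and skeleton markers, the cartilage gene Acan had 6 and 49 counts and Shox2 had 8 and 19. Of the neural markers, Tubb3 had 34 and 68 counts and Stmn2 had 49 and 85. Their part in the Hoxc and Hoxa5 differences was not tested.

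**Figure D3:**
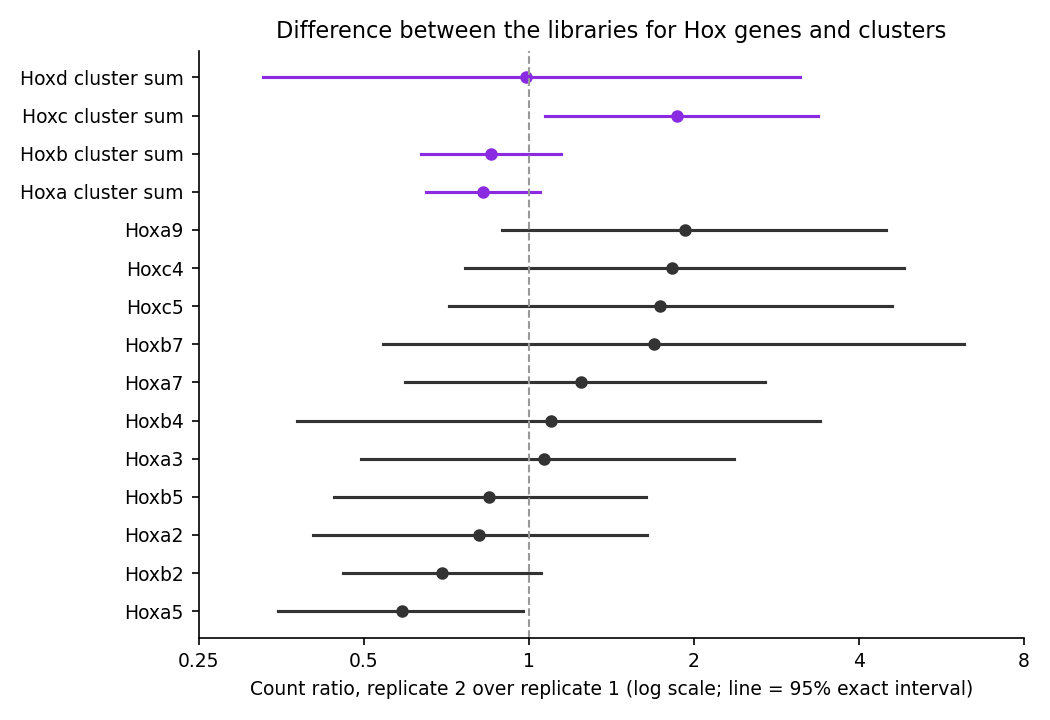
Count ratio of replicate 2 over replicate 1 (log axis) with its exact 95% interval for 11 Hox genes with at least 10 counts in either library (black) and for the 4 cluster sums (purple). The intervals of Hoxa5 and of the Hoxc sum leave out 1, and those of the other genes and clusters cross it.

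The partners of Hox proteins were more abundant than the Hox genes. TALE proteins are homeodomain cofactors that bind DNA together with Hox proteins. Of 9 such genes, 8 reached 1 TPM in both libraries, against 53.1% of all protein-coding genes. These 8 also lay above the highest Hox gene in both. The 9 genes summed to 33.8 TPM in replicate 1 and 29.8 TPM in replicate 2. Pknox1 stood at 8.22 and 7.97 TPM and Meis1, the partner of Hoxa9 in blood progenitors, at 8.06 and 7.49 TPM. Pbx3 had 6.21 and 5.50 TPM. Pknox2 was the lowest, at 0.342 and 0.413 TPM. Markers of blood stem and progenitor cells were also above the Hox genes: 9 of 10 reached 1 TPM in both libraries, with a sum of 76.1 and 73.7 TPM. So were 10 of 10 stellate and mesenchymal markers.

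Most of the listed homeobox genes outside the Hox clusters were higher. Of 17 that act in liver, blood or nearby organs, 12 lay above the highest Hox gene in both libraries and 11 reached 1 TPM. Of all protein-coding genes, 53.1% reached 1 TPM in both libraries, and the highest Hox gene stood at percentile 45.0. The counts for this list are thus not far from those of protein-coding genes at large. Hhex, needed for the liver bud, had 27.8 and 26.0 TPM, and Cux1 had 15.7 and 15.8 TPM. Zeb2, which acts in blood formation, had 10.7 and 9.51 TPM. Pdx1, the pancreas and duodenum factor, was the lowest by mean TPM, at 0.0207 and 0.0103 TPM. The Evx genes, homeobox genes at the high-number end of Hoxa and Hoxd, had 0 counts in both libraries.

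Chromatin regulators of the Hox clusters were measured at higher levels. Of 24 Polycomb genes, 23 reached 1 TPM in both libraries, against 53.1% of all protein-coding genes, and all 24 lay above the highest Hox gene. Rbbp7 and Rbbp4, histone-binding subunits shared with other complexes, led with 267 and 231 TPM and with 205 and 240 TPM. Ezh2, the methyltransferase that places the silencing mark, had 38.2 and 39.3 TPM. Cbx7 was the lowest by mean TPM, at 1.27 and 0.877 TPM. All 16 MLL and trithorax genes reached 1 TPM in both libraries. Dpy30 had 74.1 and 90.7 TPM, Mllt3 70.3 and 77.6 TPM and Psip1 34.5 and 39.6 TPM, while Kmt2a, which encodes MLL itself, was the lowest of the list by mean TPM at 2.61 and 2.26 TPM. The Cdx genes, which open central Hox genes in the early embryo, had at most 4 counts, and Cdx4 had 0.

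**Figure D4:**
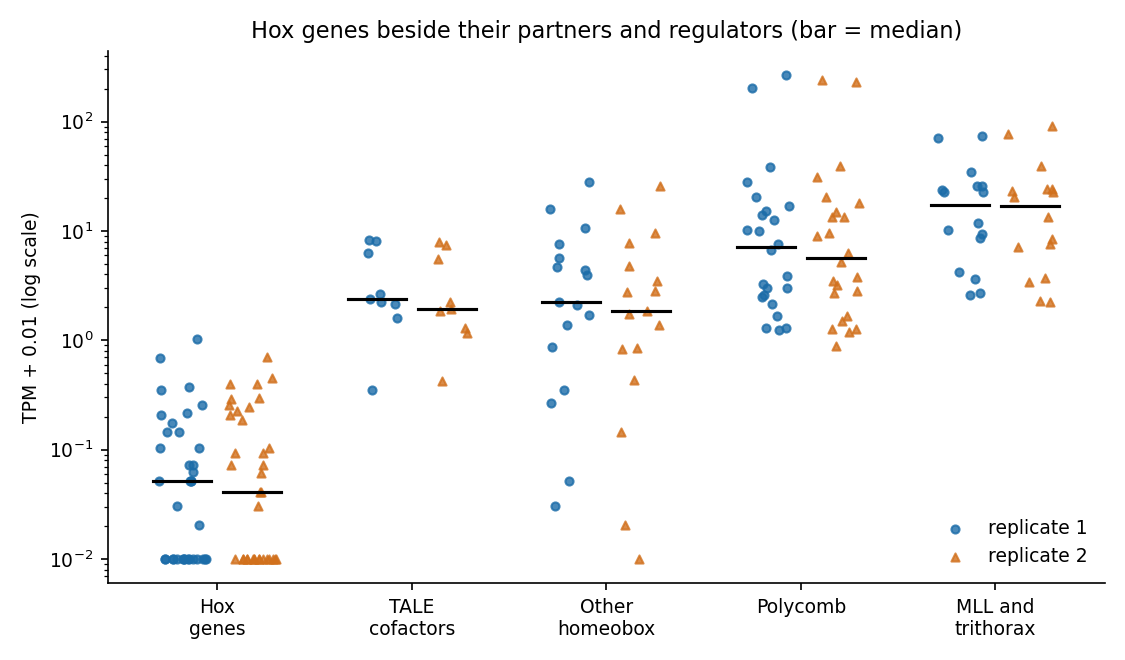
Level of each gene as TPM + 0.01 (log axis) for the Hox genes of paralogs 2 to 13 and 4 lists of partners and regulators, with circles for replicate 1, triangles for replicate 2 and bars for the list medians. All 24 Polycomb and all 16 MLL and trithorax genes lie above the highest Hox gene in both libraries.

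Most genes next to the clusters were more abundant than the Hox genes. Of the 40 protein-coding genes nearest to them, 5 on each side of each cluster, 29 reached 1 TPM in both libraries, with a median of 15.8 and 15.9 TPM. Over all protein-coding genes 53.1% did, with a median of 1.68 and 1.54 TPM, so many genes elsewhere also lay above the Hox genes. The count was 7 of 10 around Hoxa, 7 around Hoxb, 8 around Hoxc and 7 around Hoxd. Beside the low-number end, Skap2 next to Hoxa had 16.4 and 18.5 TPM, Smug1 next to Hoxc4 had 4.37 and 4.18 TPM and Mtx2 next to Hoxd1 had 43.0 and 50.5 TPM. Skap1 next to Hoxb1 was low, at 0.186 and 0.175 TPM. Beyond the high-number end of Hoxd, Evx2 was at 0 counts and Lnpk after it had 14.0 and 16.0 TPM.

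The duplicated neighbourhoods share gene families, and these were expressed around clusters of very different Hox level. Heterochromatin protein genes lie beside 3 clusters: Cbx3 by Hoxa had 148 and 182 TPM, Cbx1 by Hoxb had 24.2 and 27.7 TPM and Cbx5 by Hoxc had 42.3 and 46.4 TPM. The RNA-binding protein genes Hnrnpa2b1, Hnrnpa1 and Hnrnpa3 lie by Hoxa, Hoxc and Hoxd. Hnrnpa3 by Hoxd had 95.9 and 90.9 TPM, while Hoxd was the lowest Hox cluster. Members of the Nfe2 family of transcription factors lie by all 4. Nfe2 by Hoxc, a factor of red cells and platelets, had 201 and 191 TPM, Nfe2l2 by Hoxd had 37.7 and 34.3 TPM and Nfe2l1 by Hoxb had 18.8 and 17.9 TPM. Nfe2l3 by Hoxa was low, at 0.186 and 0.155 TPM, beside the highest Hox cluster.

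**Figure D5:**
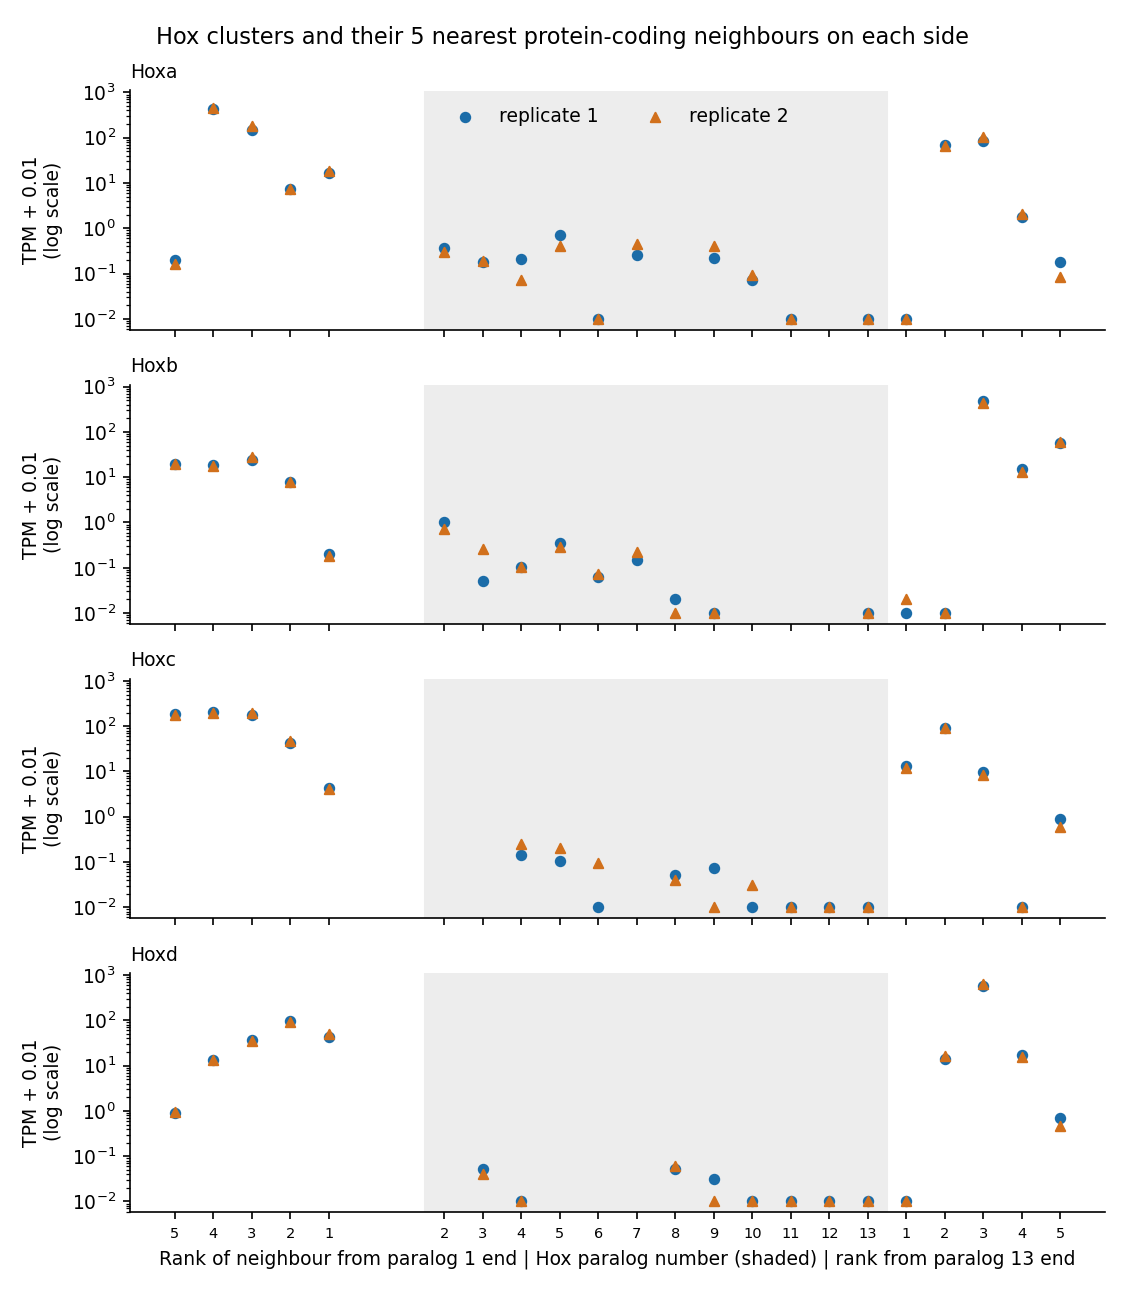
Level as TPM + 0.01 (log axis) of the Hox genes of paralogs 2 to 13 (shaded) and of the 5 nearest protein-coding genes on each side of each cluster, ordered from the low-number end (left) to the high-number end (right), with circles for replicate 1 and triangles for replicate 2. Most flanking genes lie above 1 TPM and the Hox genes lie near or below it.

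Inside the cluster spans, most noncoding genes had no counts. Of 42 measured, 31 had 0 counts in both libraries. These include short genes, namely 15 of 16 of the class misc_RNA and all 6 microRNA genes, and RNA of 200 nt or less was not selected. Of the 20 others, 10 had 0 counts, or 50%, against 57.1% of all 12032 measured genes of the same classes. Hotairm1, an antisense RNA at the low-number end of Hoxa, at chr6:52156902-52162119, that is known from myeloid cells, was the only one at 1 TPM or more, with 1.92 and 2.16 TPM. That level rested on 14 and 19 counts. Hoxaas3 had 9 and 13 counts and Hoxb3os 17.93 and 15.23 counts.

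Most Hox RNA was assigned to transcripts annotated as protein-coding. Of the Hox TPM, 91.5% in replicate 1 and 81.9% in replicate 2 lay on such transcripts, or 86.7% ± 6.79 (SD, n = 2). Over all protein-coding genes it was 82.9% and 83.7%, within the range of the Hox values. For Hoxb2, the coding form Hoxb2-201 took 44.73 and 41.81 counts, and a form with a retained intron took 6.91 and 4.75. Hoxa7 differed: Hoxa7-205, annotated as a target of nonsense-mediated decay, took 10.05 of 13 counts in replicate 1 and 12.69 of 21 in replicate 2. By TPM it held 64.0% and 35.7% of the gene, and the coding form Hoxa7-203 held 45.2% in replicate 2. All 3 counts of Hoxa10 in replicate 1 and 3.99 of 6 in replicate 2 lay on Hoxa10-203, a processed transcript without a coding annotation. For Hoxa9, the coding form Hoxa9-201 led by counts, with 6.65 and 18.15. By TPM the coding form Hoxa9-202 held 66.7% in replicate 1 and the processed transcript Hoxa9-203 held 62.2% in replicate 2. At these counts the division among transcripts is an estimate from few reads.

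Promoters with many CG were found among Hox genes with and without counts. RefSeq promoters on GRCm38.p6 matched 22 of the 39 genes, and CG, a motif read the same on both strands, was counted in the 250 bases before each start. Hoxa10 and Hoxd11 have 2 promoters each, and the one with more CG was taken. At least 10 CG were present in 15 of 22, or 68.2%, against 37.8% of 32851 promoters of that length. Taken singly, 15 of the 24 Hox promoters did, or 62.5%. It was 8 of 14 for genes with counts and 7 of 8 for genes listed at 0. These 8 all lie in Hoxa or Hoxd. Most Hoxb and Hoxc genes, Hoxb2 among them, had no matched promoter, so the groups are an uneven sample of the clusters. Hoxa5 and Hoxd13 are shown as a higher gene and one at 0 counts, picked after their values were seen, with CG in capitals.
Hoxa5: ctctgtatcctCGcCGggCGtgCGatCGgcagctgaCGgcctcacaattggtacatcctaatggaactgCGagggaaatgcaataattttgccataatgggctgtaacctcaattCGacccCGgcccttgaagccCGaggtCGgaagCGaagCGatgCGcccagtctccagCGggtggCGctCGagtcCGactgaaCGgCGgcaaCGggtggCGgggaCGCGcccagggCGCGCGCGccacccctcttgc
Hoxd13: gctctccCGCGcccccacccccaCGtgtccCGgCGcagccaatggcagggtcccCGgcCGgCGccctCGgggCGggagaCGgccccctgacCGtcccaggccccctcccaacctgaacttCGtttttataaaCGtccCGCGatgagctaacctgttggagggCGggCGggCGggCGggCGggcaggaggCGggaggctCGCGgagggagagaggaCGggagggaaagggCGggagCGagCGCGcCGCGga
The Hoxa5 stretch, at chr6:52204588-52204837 on the minus strand, holds 28 CG. That of Hoxd13, at chr2:74667975-74668224 on the plus strand, holds 31. A count of CG describes the letters alone, and methylation was not measured.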

How the data were processed

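Embryonic mouse liver was measured in 2 total RNA libraries of 1 group, each with 1 gene and 1 transcript table. The authors deposited expected counts, which are estimates of reads per feature without scaling, and TPM and posterior mean TPM, both corrected for length and with spike-ins in the library total. Per the companion descriptions the files use assembly mm10 and annotation M4. The aligner, quantifier, versions, use of strand and the kind of RNA selection (poly(A) or removal of ribosomal RNA) were not given in the sources used here. Besides 43346 genes, each gene table listed 97 spike-ins and 26248 numerically named entries of unstated nature.

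Spike-ins and numeric entries were left out and TPM was rescaled. Gene symbols, biotypes and positions were read from GENCODE M21 (GRCm38), which is later than M4 and named 42462 genes. The members and all lists were chosen with earlier results of these data known. Levels are both values or mean ± SD over 2 libraries. Replicate 2 was set against replicate 1 by the count ratio with an exact 95% interval (Clopper-Pearson, scaled by library totals). A gene was called different at over 2-fold in TPM if either library had 10 expected counts or more. No p-value was computed, with 1 library a side. The interval was tested on simulated data. Named by rule, where printed, were Hox genes at 1 TPM or highest in a cluster or paralog number, those at 0, those called, the 3 highest genes and the lowest of each list, and noncoding genes and neighbours at 1 TPM; most other members are given besides, some genes are not reported here, and Skap1, Nfe2l3, Hoxaas3, Hoxb3os and some transcripts were chosen after their values were seen. Alternatives were posterior mean TPM, spike-ins kept, other limits and pseudocounts, other scalings (TMM in edgeR 4.0.16, median of ratios in DESeq2 1.42.0, spike-in totals) and each library alone. Shared stretches were exact matches of 100 bases between GENCODE M21 transcripts of measured genes. Versions were R 4.3.3 and Python 3.11.15 with SciPy 1.17.1, pandas 2.3.3, matplotlib 3.10.9 and NumPy 2.4.6.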

Additional observations from a re-analysis of the deposited data

How the results depend on the processing

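Under posterior mean TPM, which is above 0 also for genes without counts, the Hox sum rose from 4.50 to 6.66 TPM, with Hoxa at 3.23, Hoxb at 2.10, Hoxc at 0.822 and Hoxd at 0.517. Under it 18 genes reached 0.1 TPM in both libraries, 0 differed by more than 2-fold and the coding share was 78.9%. Among named genes, Hoxa3 moved from 0.171 to 0.346 TPM, Hoxa7 from 0.346 to 0.543, Hoxa9 from 0.300 to 0.491, Hoxa10 from 0.0724 to 0.145, Hoxb6 from 0.0569 to 0.0827, Hoxc5 from 0.145 to 0.233 and Hoxd8 from 0.0465 to 0.140. The order of the clusters was the same. With spike-ins kept in the total the Hox sum was 4.35 TPM, and in expected counts it was 7.15 CPM. No gene reached 1 TPM in both libraries, 1 did in replicate 1 alone (Hoxb2, a range of 0 to 1 over single libraries), 1 reached 0.5 TPM and 8 reached 10 expected counts. The count of genes more than 2-fold apart, 1 as reported, was 0 with TMM scaling, 0 with median-of-ratios scaling, 2 with spike-in scaling (Hoxa9 and Hoxc4) and 0 with a pseudocount of 0.1. It was 10 without a filter on low values. It was also 0 with a pseudocount of 1 and 0 with expected counts scaled by library total, both chosen after the data were seen. So few counts limit every statement on a single gene: of the 12 genes compared, 1 had an interval that left out 1. No paired analysis was possible because the series has 1 group.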
